A study of Mus musculus with 3 samples.

Results

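The genes for histone-modifying enzymes were examined in RNA bound to the chromatin of mouse bone-marrow-derived macrophages. They were chosen by symbol alone: genes with at least 1 protein-coding transcript named as lysine demethylases (Kdm), lysine methyltransferases (Kmt), lysine acetyltransferases (Kat), histone deacetylases (Hdac), sirtuins (Sirt) or SET-domain genes (Setd), with the 4 core subunits of Polycomb repressive complex 2, Ezh1, Ezh2, Eed and Suz12, and without Kdm5d. The rule gave 65 genes, of 21901 genes with a protein-coding transcript and 55536 annotated genes in all. The rule uses no measured value. The macrophages came from C57BL/6J bone marrow, and the labels gave no sex or age. All 3 libraries, replicates 1, 2 and 3, belonged to 1 group. These cells had 100 ng/ml Lipid A (the lipid anchor of bacterial lipopolysaccharide, the ligand of Toll-like receptor 4) for 12 h, then 12 h without it after a wash, and then 100 ng/ml again for 60 min. Without untreated or singly dosed cells to set them against, the values are levels in cells dosed on both occasions and are not responses to Lipid A. The labels gave the 3 biological replicates 1 donor entry and did not say whether they were separate animals or cultures, so any p-value measures only the spread between these libraries, which may be technical.

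Histones carry acetyl and methyl groups on lysines of their tails, and the enzymes that add them (acetyltransferases, methyltransferases) or remove them (deacetylases, demethylases) set which genes can be transcribed. Acetylated histones and methylation of lysine 4 of histone H3 (H3K4) mark active promoters and enhancers, while methylation of H3K9 and H3K27 marks silenced chromatin. In macrophages such marks are laid down and erased when bacterial products are sensed, and they are studied as part of the memory that changes how these cells meet the same product again. RNA of the chromatin fraction holds transcripts still being made, those not yet spliced in full and those not yet released, so its level is neither that of cytoplasmic mRNA nor that of the enzyme.

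Replicates 1, 2 and 3 held 12602702, 17222239 and 17042691 gene counts, and the 65 genes took 0.535, 0.575 and 0.487% of them. With these totals, a count of 0 allows a level of up to 0.238, 0.174 and 0.176 CPM in replicates 1, 2 and 3 (CPM divides a count by its library's total), the equivalent of 3 counts, which covers counting error only. The libraries were made from 1000, 250 and 500 ng of RNA and any pair of them differed by far more than sampling noise (chi-square of 61.6 to 102 per gene). All 8 macrophage markers were detected, with mean TPM (transcript abundance scaled by length and by library) of 29.2 to 441. Replicate 2 stood apart: the summed counts of 9 fibroblast and stromal markers were 3, 44908 and 110 in replicates 1, 2 and 3, and all 9 were highest in replicate 2. In replicate 1, 8 of these 9 were at 0, and in replicate 3, 3 of 9. Neutrophil markers summed to at most 1 count in any library, T cell markers to 62 to 116, B cell markers to 3 to 69 and erythroid markers to 17 to 38. In such bulk samples fewer cells of a type and less RNA per cell cannot be told apart.

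Most histone-modifying enzyme genes had chromatin RNA in these macrophages. Of the 65 genes, 61 had at least 1 TPM in every library, against 39.1% of all 21901 genes with a protein-coding transcript, and 32 had at least 10 TPM in every library, against 16.8%. Their median over the mean of 3 libraries was 13.2 TPM, against 0.577 TPM for all genes with a protein-coding transcript, and the median of the 65 genes within each library was 10.02, 17.2 and 11.6 TPM in replicates 1, 2 and 3. Without replicate 2 the median was 11.1 TPM, with 61 genes at 1 TPM and 32 at 10 TPM. By role, the median of the mean TPM ran from H3K4 methyltransferases (34.6 TPM, 7 genes) through the other methyltransferases and SET genes (27.5 TPM, 11 genes), demethylases (20.6 TPM, 17 genes), Polycomb repressive complex 2 (14.7 TPM, 4 genes), sirtuins (13.2 TPM, 7 genes), acetyltransferases (11.9 TPM, 8 genes), class I deacetylases (9.25 TPM, 4 genes) and class IIa deacetylases (6.42 TPM, 4 genes) to class IIb and IV deacetylases (5.93 TPM, 3 genes). In the order of mean levels, 62 of 64 neighbouring genes had ranges over the libraries that overlapped. The 2 exceptions were Setd5, above Kdm6b in every library, and Kdm5b, above Hdac11. Values for replicates 1, 2 and 3 are given below in that order, and each mean carries its SD over the 3 libraries.

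**Figure D1:**
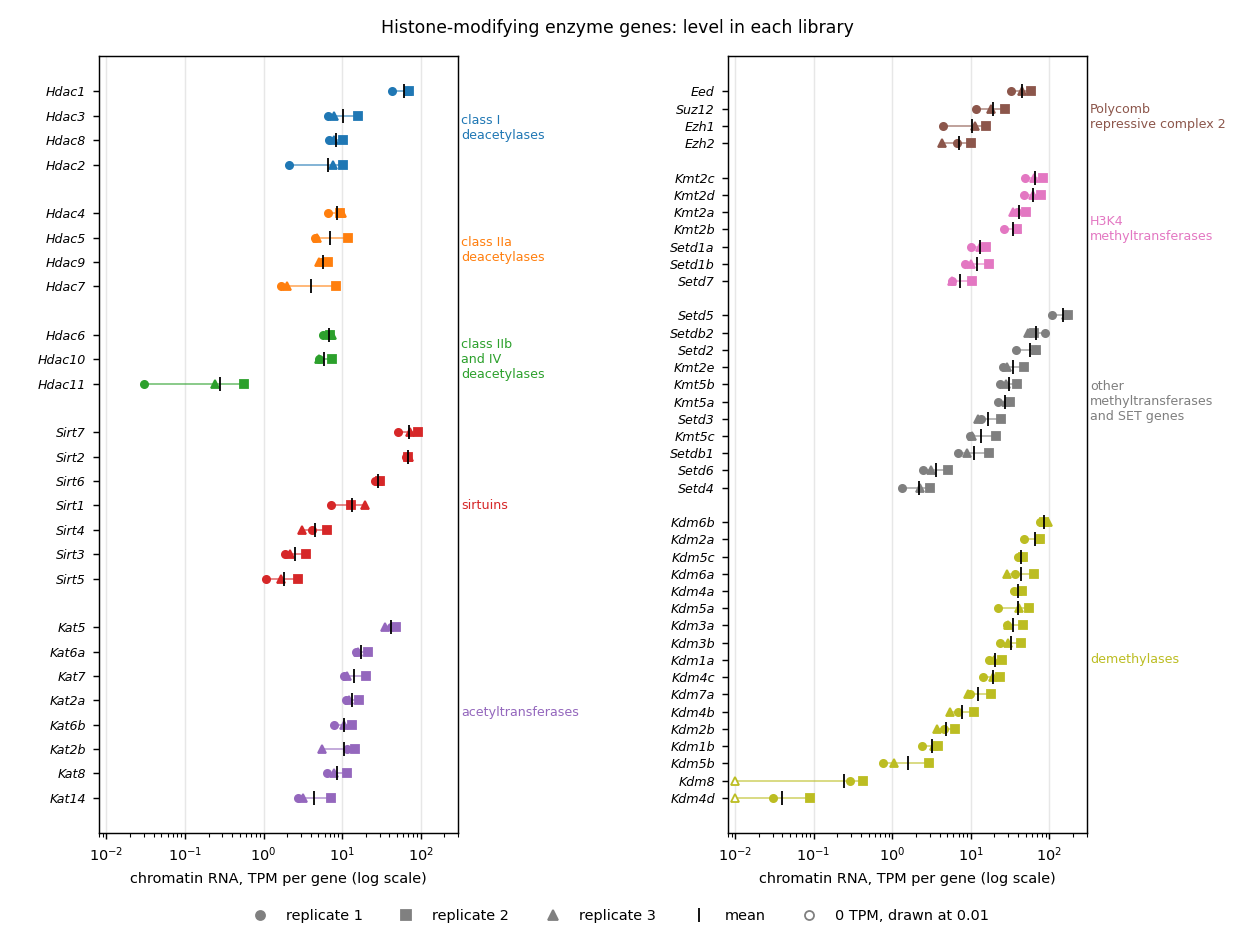
Chromatin RNA level (TPM, log axis) of each of the 65 genes in each library, grouped by role. Symbols mark the 3 replicates, the vertical tick the mean and the line the range, and open symbols are values of 0 drawn at 0.01. Setd5 is highest with a mean of 149 TPM, and the squares of replicate 2 are the rightmost in 58 of 65 genes. Among all genes with a protein-coding transcript and any TPM, replicate 2 was highest for 11889, replicate 1 for 1509 and replicate 3 for 2398.

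Among the Hdac genes, which encode enzymes that remove acetyl groups from lysines, Hdac1 stood above the other 10. Hdac1, the catalytic subunit of the Sin3, NuRD and CoREST corepressors (ENSMUSG00000028800.15, mm10 chromosome 4, 129516104 to 129542713, − strand), had 43.5, 71.7 and 69.9 TPM, a mean of 61.7 ± 15.8 TPM. Hdac3, the enzyme of the NCoR and SMRT corepressor, had 6.62, 16.03 and 7.82 TPM, a mean of 10.2 ± 5.12 TPM, and Hdac8 had 6.83, 10.3 and 7.88 TPM, a mean of 8.35 ± 1.8 TPM. Hdac2, the near twin of Hdac1 that sits in the same complexes, had 2.13, 10.4 and 7.65 TPM, a mean of 6.71 ± 4.19 TPM, from 31, 197 and 150 counts. The lowest Hdac1 library was thus above the highest library of each other class I gene. The class IIa genes encode deacetylases of weak activity that shuttle between nucleus and cytoplasm and bind MEF2 factors, and the highest of the 4 averaged 8.68 TPM. Hdac4 had 6.65, 9.29 and 10.1 TPM, a mean of 8.68 ± 1.81 TPM, Hdac5 4.55, 11.9 and 4.82 TPM, a mean of 7.09 ± 4.17 TPM, Hdac9 5.46, 6.69 and 5.09 TPM, a mean of 5.75 ± 0.838 TPM and Hdac7 1.66, 8.31 and 1.98 TPM, a mean of 3.98 ± 3.75 TPM. Hdac5 and Hdac7 were highest in replicate 2, and without it their means were 4.69 and 1.82 TPM. The class IIb gene Hdac6, a cytoplasmic deacetylase of tubulin, had 5.75, 7.09 and 7.53 TPM, a mean of 6.79 ± 0.927 TPM, and Hdac10, which acts on polyamines, had 5.12, 7.53 and 5.14 TPM, a mean of 5.93 ± 1.39 TPM. Hdac11, the class IV gene, had 0.03, 0.56 and 0.24 TPM, a mean of 0.277 ± 0.267 TPM, from 1, 17.8 and 2 counts. It passed 3 counts in replicate 2, the library with the stromal markers, and in no other.

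The sirtuins, deacylases that consume NAD+, averaged 1.83 to 72.1 TPM. Sirt7, a nucleolar and chromatin deacetylase (ENSMUSG00000025138.14, mm10 chromosome 11, 120618372 to 120625240, − strand), had 51.5, 91.98 and 72.8 TPM, a mean of 72.1 ± 20.2 TPM. Sirt2, mostly a cytoplasmic deacetylase (ENSMUSG00000015149.14, mm10 chromosome 7, 28766735 to 28788661, + strand), had 64.6, 68.2 and 72.1 TPM, a mean of 68.3 ± 3.79 TPM, and the chromatin deacetylase gene Sirt6 had 26.6, 30.7 and 29.4 TPM, a mean of 28.9 ± 2.1 TPM. In TPM, the highest library of Sirt2 and Sirt6 was only 1.12 and 1.15 times the lowest. Each library was also set against the mean of the others, less a median shift. That shift was taken over the genes with a protein-coding transcript and at least 1 TPM in every library. On that log2 scale Sirt2 stood at 0.42, −0.56 and 0.29 and Sirt6 at 0.37, −0.42 and 0.21. Sirt1, the nuclear deacetylase of histones and of the NF-kB subunit RelA, had 7.31, 12.99 and 19.4 TPM, a mean of 13.2 ± 6.05 TPM, and it was highest in replicate 3. The 3 sirtuins of mitochondria were the lowest in the gene tables, with 4.19, 6.41 and 3.06 TPM, a mean of 4.55 ± 1.7 TPM for Sirt4, 1.9, 3.52 and 2.18 TPM, a mean of 2.53 ± 0.866 TPM for Sirt3 and 1.07, 2.77 and 1.65 TPM, a mean of 1.83 ± 0.864 TPM for Sirt5. No library of these 3 reached the lowest library of Sirt1 there, but with kallisto-layout sums Sirt5 had 16.9, 20.4 and 21.6 TPM, above the lowest Sirt1 library in these sums, 13.4 TPM.

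Of the acetyltransferases, Kat5 was highest in every library in the gene tables. With kallisto-layout sums Kat7 was above it in replicate 2, at 38.2 TPM against 35.6 TPM. Kat5 encodes Tip60, the catalytic subunit of the NuA4 complex, and had 41.5, 48.2 and 35.6 TPM, a mean of 41.8 ± 6.27 TPM. Kat6a had 15.2, 21.4 and 16.1 TPM, a mean of 17.6 ± 3.32 TPM and its relative Kat6b 7.8, 13.3 and 10.5 TPM, a mean of 10.5 ± 2.75 TPM, both catalytic subunits of complexes that acetylate histone H3. Kat7, which encodes HBO1, had 10.6, 20.1 and 11.6 TPM, a mean of 14.1 ± 5.21 TPM. The Gcn5 gene Kat2a, an enzyme of the SAGA and ATAC complexes, had 11.1, 16.4 and 12.1 TPM, a mean of 13.2 ± 2.82 TPM, and its alternative in those complexes, Kat2b, had 11.5, 14.5 and 5.61 TPM, a mean of 10.5 ± 4.5 TPM. The lowest library of Kat6a was above the highest of Kat6b and of Kat2b, while the ranges of the other pairs among these 5 genes below Kat5 overlapped. Kat8, which acetylates H4K16, had 6.5, 11.7 and 7.82 TPM, a mean of 8.68 ± 2.71 TPM, and the ATAC subunit gene Kat14 was lowest with 2.77, 7.22 and 3.21 TPM, a mean of 4.4 ± 2.45 TPM.

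The 4 core genes of Polycomb repressive complex 2, which methylates H3K27, were unequal in total level. Eed, the subunit that binds trimethylated H3K27 (ENSMUSG00000030619.9, mm10 chromosome 7, 89954654 to 89980983, − strand), had 32.8, 58.00 and 44.3 TPM, a mean of 45.04 ± 12.6 TPM, and the scaffold gene Suz12 had 11.7, 27.1 and 18.02 TPM, a mean of 18.9 ± 7.73 TPM. The 2 alternative catalytic subunits were lower: Ezh1 had 4.47, 15.5 and 11.4 TPM, a mean of 10.5 ± 5.59 TPM and Ezh2 6.61, 10.2 and 4.28 TPM, a mean of 7.02 ± 2.96 TPM. In gene totals, every library of Eed was above every library of the other 3 genes, while the ranges of Ezh1 and Ezh2 overlapped. In protein-coding isoforms alone Eed had 4.59, 9.5 and 6.5 TPM, a range that overlapped those of Suz12 and Ezh1. Suz12 had 3.62, 9.19 and 6.59 TPM in them, Ezh1 3.23, 8.24 and 4.23 TPM and Ezh2 0.51, 3.81 and 1.78 TPM. Among partners of the complex outside the rule, Aebp2, an accessory subunit, had 82.3, 104 and 153 TPM, a mean of 113 ± 36.1 TPM, which was above Eed in every library.

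The H3K4 methyltransferases included 4 genes of the large MLL enzymes, of which Kmt2c and Kmt2d lay at close levels. Kmt2c and Kmt2d, which encode MLL3 and MLL4 and place the monomethyl mark of enhancers, had 49.2, 82.8 and 62.95 TPM, a mean of 65.00 ± 16.9 TPM and 48.1, 78.05 and 61.98 TPM, a mean of 62.7 ± 14.96 TPM. Kmt2a, which encodes MLL1, had 38.5, 49.8 and 34.8 TPM, a mean of 41.00 ± 7.81 TPM, and Kmt2b, which encodes MLL2, had 26.9, 38.5 and 38.5 TPM, a mean of 34.6 ± 6.72 TPM. The catalytic subunits of the SET1 complexes, which trimethylate H3K4 at promoters, were lower in every library. Setd1a had 10.02, 15.8 and 12.9 TPM, a mean of 12.9 ± 2.9 TPM and Setd1b 8.52, 16.9 and 10.2 TPM, a mean of 11.8 ± 4.43 TPM. Setd7, a monomethyltransferase of H3K4 and of other proteins, was lowest with 5.72, 10.2 and 5.7 TPM, a mean of 7.22 ± 2.61 TPM.

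The remaining methyltransferases and SET genes held the highest gene of all 65. Setd5, a SET-domain gene whose enzymatic activity is disputed (ENSMUSG00000034269.12, mm10 chromosome 6, 113077365 to 113153435, + strand), had 109, 174 and 165 TPM, a mean of 149 ± 35.3 TPM, above 98.3% of all genes with a protein-coding transcript. Setdb2, a member of the H3K9 methyltransferase family that interferon is known to induce in macrophages (ENSMUSG00000071350.12, mm10 chromosome 14, 59402009 to 59440884, − strand), had 87.1, 63.9 and 53.05 TPM, a mean of 68.04 ± 17.4 TPM. It was the 1 gene of the 65 that was highest in replicate 1. Setd2, which trimethylates H3K36 behind RNA polymerase II, had 37.8, 67.7 and 67.04 TPM, a mean of 57.5 ± 17.1 TPM, and Kmt2e, a relative of Setd5, had 25.6, 47.7 and 28.9 TPM, a mean of 34.1 ± 11.9 TPM. Of the H4K20 methyltransferase genes, Kmt5b had 23.7, 39.2 and 27.8 TPM, a mean of 30.2 ± 8.05 TPM, Kmt5a 22.4, 31.8 and 28.3 TPM, a mean of 27.5 ± 4.73 TPM and Kmt5c 9.72, 20.8 and 10.5 TPM, a mean of 13.7 ± 6.16 TPM. Kmt5b, which with Kmt5c adds the further methyl groups to the monomethyl mark of Kmt5a, was above Kmt5c in every library. Setdb1, the H3K9 methyltransferase that silences retroelements, had 6.85, 17.2 and 9.0 TPM, a mean of 11.02 ± 5.47 TPM. Setd3, which methylates actin, averaged 16.5 ± 6.44 TPM and Setd6, which methylates RelA, 3.58 ± 1.42 TPM. Setd4 was lowest with 1.32, 3.03 and 2.29 TPM, a mean of 2.21 ± 0.858 TPM.

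The demethylases ran from 0.04 to 85.7 TPM on average. Kdm6b, which encodes the H3K27 demethylase JMJD3 and is known to be induced by lipopolysaccharide in macrophages (ENSMUSG00000018476.7, mm10 chromosome 11, 69398508 to 69413675, − strand), had 76.02, 84.7 and 96.5 TPM, a mean of 85.7 ± 10.3 TPM. Its relative Kdm6a, on the X chromosome, had 36.98, 63.9 and 29.3 TPM, a mean of 43.4 ± 18.2 TPM. Kdm6b was above Kdm6a in every library. Kdm2a, an H3K36 demethylase, had 46.9, 76.98 and 73.3 TPM, a mean of 65.7 ± 16.4 TPM, and its paralog Kdm2b, which brings Polycomb repressive complex 1 to CpG islands, had 4.5, 6.26 and 3.7 TPM, a mean of 4.82 ± 1.31 TPM. The H3K4 demethylase gene Kdm5c had 40.2, 46.3 and 44.8 TPM, a mean of 43.8 ± 3.16 TPM and Kdm5a 22.03, 55.8 and 41.2 TPM, a mean of 39.7 ± 16.9 TPM, while Kdm5b had 0.76, 2.93 and 1.04 TPM, a mean of 1.58 ± 1.18 TPM. Kdm5b was below both in every library, and without replicate 2 its mean was 0.900 TPM. The H3K9 demethylase genes Kdm3a and Kdm3b had 28.6, 46.3 and 29.4 TPM, a mean of 34.8 ± 10.02 TPM and 23.6, 43.1 and 29.9 TPM, a mean of 32.2 ± 9.92 TPM, with ranges that overlapped. Kdm4a and Kdm4c, which act on H3K9 and H3K36, had 35.1, 45.1 and 40.1 TPM, a mean of 40.1 ± 4.98 TPM and 14.4, 23.3 and 19.2 TPM, a mean of 18.96 ± 4.43 TPM, and every library of Kdm4a was above every library of Kdm4c. Kdm4b and Kdm7a averaged 7.79 ± 2.92 TPM and 12.3 ± 4.9 TPM. Kdm1a, the flavin-dependent H3K4 demethylase LSD1, had 17.1, 24.9 and 19.9 TPM, a mean of 20.6 ± 3.91 TPM, and its paralog Kdm1b had 2.37, 3.87 and 3.42 TPM, a mean of 3.22 ± 0.77 TPM. At the low end, Kdm8 had 5, 12 and 0 counts, or 0.29, 0.43 and 0 TPM, and Kdm4d (ENSMUSG00000053914.9, mm10 chromosome 9, 14462548 to 14500482, − strand) had 1, 3 and 0 counts. Kdm4d was the 1 gene of the 65 with at most 3 counts in each library, and it was not detectable above that floor at this depth.

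The libraries differed in a shared way. Each library was set against the mean of the other libraries on the log2 scale, as a median over genes with at least 1 TPM in every library. The 61 such enzyme genes stood at −0.54, 0.59 and −0.18 in replicates 1, 2 and 3. All 8563 such genes with a protein-coding transcript stood at −0.54, 0.55 and −0.17. Replicate 2 was the highest library for 58 of the 65 genes, against 1 for replicate 1 and 6 for replicate 3. Among all genes with a protein-coding transcript and any TPM in at least 1 library it was highest for 11889, against 1509 for replicate 1 and 2398 for replicate 3. The part of genes highest in replicate 2 was thus larger among the 65 genes. Among the 61 genes with at least 1 TPM in every library, 19 (31.1%) had a highest library over 2 times the lowest, against 3551 of 8563 (41.5%) of all such genes. The 5 genes with the largest ratio of highest to lowest library at a mean of at least 1 TPM were Hdac7 (5.01), Hdac2 (4.86), Kdm5b (3.86), Ezh1 (3.48) and Sirt1 (2.66). Hdac7 and Kdm5b were high in replicate 2, the library with the stromal markers, and the part of that RNA in their levels was not tested. Relative to the shift of the 8563 genes, Hdac7 stood 1.64 higher in replicate 2 on the log2 scale, and Kdm5b 1.15 higher. Hdac2 and Ezh1 were instead low in replicate 1, by −1.54 and −1.05 after that shift. Setdb2 stood 1.12 higher in replicate 1 and Sirt1 1.10 higher in replicate 3.

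Related enzymes were compared within libraries as 17 pairs, on the difference of log2(TPM + 1), in which the added 1 makes differences between low genes smaller. In 8 pairs the ranges of the 2 genes did not overlap, and in 9 the direction was the same in all 3 libraries. Kdm2a exceeded Kdm2b by 3.51 ± 0.44, a ratio of mean TPM of 13.6, and with kallisto-layout sums the difference was 2.86. Hdac1 exceeded Hdac2 by 3.18 ± 0.59, a ratio of 9.19, and Kdm1a exceeded Kdm1b by 2.36 ± 0.10, a ratio of 6.40. Setdb1 stood under Setdb2 by a difference of −2.59 ± 0.84, a ratio of 0.162. Smaller differences of steady direction were those of Kmt5b over Kmt5c (1.14 ± 0.23), Kdm4a over Kdm4c (1.06 ± 0.15), Kdm6b over Kdm6a (1.04 ± 0.64) and Kat6a over Kat6b (0.70 ± 0.16). Kmt2c was above Kmt2d in every library, but only by 0.05 ± 0.03, and their ranges overlapped. In the other 8 pairs the direction varied between libraries: Ezh1 over Ezh2 differed by 0.44 ± 0.86, Kat2a over Kat2b by 0.37 ± 0.54, Kmt2a over Kmt2b by 0.24 ± 0.34, Setd1a over Setd1b by 0.15 ± 0.21, Kdm3a over Kdm3b by 0.11 ± 0.14, Kdm5a over Kdm5c by −0.23 ± 0.56, Hdac5 over Hdac4 by −0.36 ± 0.64 and Hdac7 over Hdac9 by −0.68 ± 0.84. An exact test over sign flips of the 3 libraries (two-sided) returned p = 0.25 for each of the 9 pairs of steady direction, the smallest that 3 libraries allow (0.472 adjusted over the 17 pairs by Benjamini-Hochberg), so no pair could pass a threshold of 0.05. With transcript sums from the kallisto-layout tables the direction turned for Kat2a over Kat2b (−0.66), Kdm3a over Kdm3b (−0.33), Kmt2a over Kmt2b (−0.00371) and Kmt2c over Kmt2d (−0.03). When only protein-coding isoforms were summed, a comparison chosen after seeing the data, Kdm1a over Kdm1b came to 0.43 and Hdac1 over Hdac2 to 1.89, while Kdm5a over Kdm5c came to −2.05. The direction turned for Kdm3a over Kdm3b (−1.17), Kat2a over Kat2b (−0.51) and Kmt2c over Kmt2d (−0.21).

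**Figure D2:**
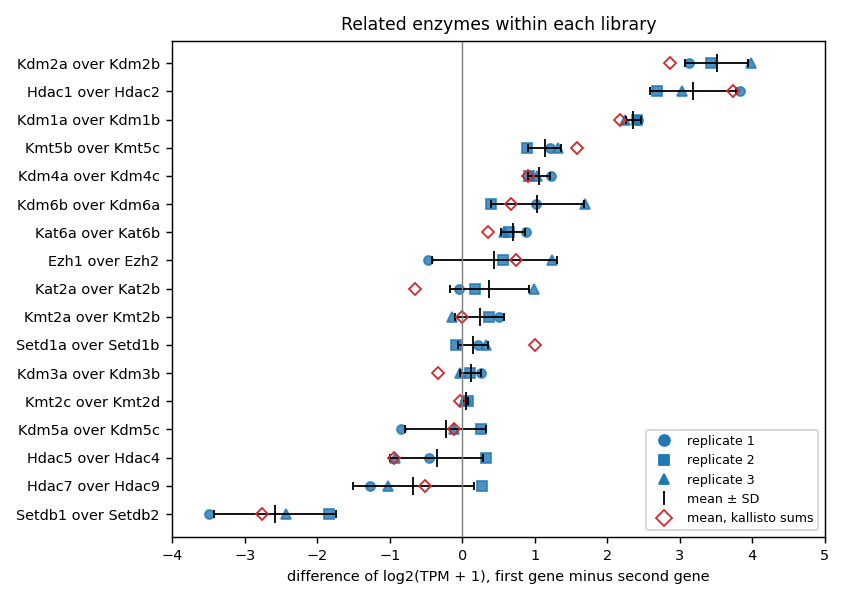
Difference of log2(TPM + 1) between the first and the second gene of each of 17 pairs of related enzymes, in each library (blue symbols), with the mean ± SD over 3 libraries (black) and the mean from kallisto-layout sums (red diamonds). Kdm2a over Kdm2b lies farthest to the right at 3.51 and Setdb1 over Setdb2 farthest to the left at −2.59.

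A gene's level sums all its annotated isoforms, and for many of these genes the isoforms that encode the enzyme held the smaller part of it. The annotation sorts transcripts into protein-coding ones, ones that retain an intron, ones whose reading frame marks them for nonsense-mediated decay (destruction of mRNAs with an early stop codon) and processed transcripts with no reading frame. Summed over the 65 genes, protein-coding isoforms held 51.5 ± 1.35% of the TPM (SD, n = 3), retained-intron isoforms 37.0 ± 1.26%, processed transcripts 8.36 ± 1.20% and nonsense-mediated-decay isoforms 3.14 ± 0.25%. All genes with a protein-coding transcript had 50.5 ± 2.10, 36.7 ± 1.41, 8.64 ± 0.89 and 4.01 ± 0.40% in the same classes, so the enzyme genes lay within 1 SD of them in the first 3 classes. Their share of nonsense-mediated-decay isoforms, 3.41, 2.91 and 3.11% in replicates 1, 2 and 3, was below the 4.46, 3.69 and 3.89% of all genes in each library. The leading isoform was protein coding in 43 genes, a retained-intron isoform in 18, a nonsense-mediated-decay isoform in 3 and a processed transcript in 1, and 14 genes had no annotated retained-intron isoform. The median share of protein-coding isoforms was 54.0%, with 29 genes under 50% and 7 under 25%. These counts by gene were not made for all genes, so they do not show a trait particular to the enzyme genes. Kmt2d and Kat6a had all of their RNA in protein-coding isoforms, and neither has an annotated retained-intron isoform, whereas Sirt4 had 3.18 ± 2.88% in them, Eed 15.01 ± 1.23%, Sirt7 19.1 ± 8.44%, Kdm5a 19.99 ± 0.615%, Kdm1a 20.2 ± 8.24%, Setd5 21.5 ± 0.947% and Hdac1 22.7 ± 4.73%. The order of levels therefore changed when only protein-coding isoforms were counted. Setd5 moved to rank 8 with 31.9 ± 7.17 TPM and Sirt7 to rank 20 with 14.9 TPM, while Kmt2d led with 62.7 ± 14.95 TPM and Kdm6b stayed at rank 2 with 55.8 ± 10.7 TPM. The rest of the Kdm6b level, 35.3 ± 5.1%, lay in 1 processed transcript of 743 bases. Processed transcripts also held 61.3 ± 7.66% of Kat2a and 45.96 ± 17.6% of Ezh1.

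**Figure D3:**
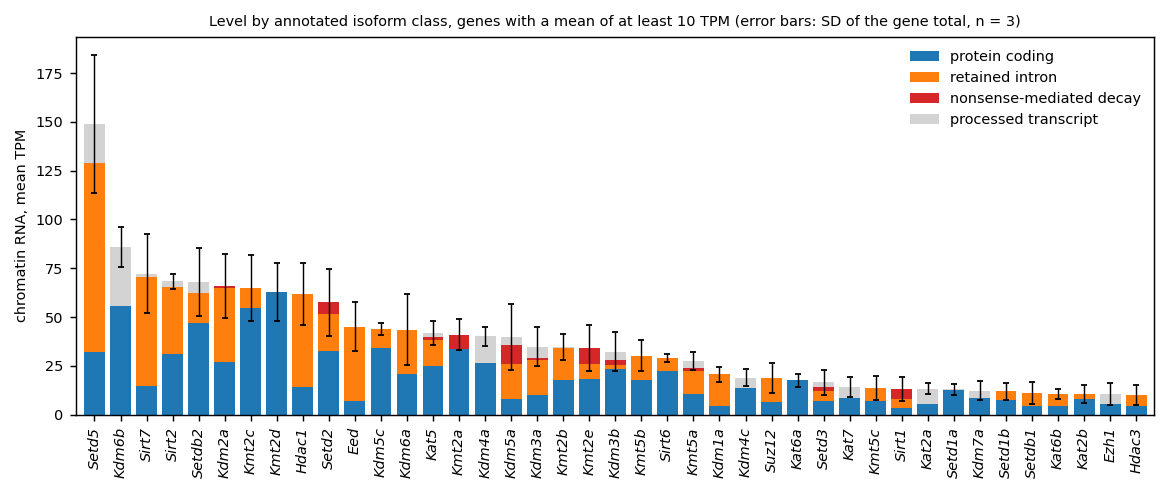
Mean TPM of the genes with a mean of at least 10 TPM, stacked by annotated isoform class, with error bars for the SD of the gene total (n = 3). The orange retained-intron part is the larger share in Setd5, Sirt7, Hdac1 and Eed, while Kmt2d is protein coding throughout.

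Retained-intron isoforms were then set against protein-coding isoforms of the same gene, on log2 of the ratio of their TPM, each plus 0.1, tested against 0 with limma over all 4311 genes with both classes and a summed mean of at least 5 TPM. Of the 65 enzyme genes, 51 had both classes and 39 were tested. At a Benjamini-Hochberg adjusted p under 0.05, retained-intron isoforms were higher in 8 genes, where 24.3% of all genes tested were so called, and lower in 12, where 25.6% of all were. The other 19 did not pass. The median ratio was −0.08 over the 39 genes and −0.06 over all genes tested, so these shares and this median lay close to those of all genes.

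The 8 genes called higher for retained-intron isoforms came from several roles: 2 subunits of Polycomb repressive complex 2, 3 demethylases, a sirtuin, a deacetylase and Setd5. Eed had 28.2, 48.5 and 37.8 TPM in retained-intron isoforms against 4.59, 9.5 and 6.5 TPM in protein-coding ones, a log2 ratio of 2.49 ± 0.20 (limma estimate ± SE, adjusted p = 0.00329). Sirt7 had 45.3, 64.1 and 57.7 TPM against 5.91, 25.9 and 12.8 TPM, a ratio of 2.13 ± 0.37 (limma adjusted p = 0.0124). Kdm1a had 15.1, 17.7 and 15.9 TPM against 2.09, 7.12 and 3.94 TPM, a ratio of 2.03 ± 0.35 (limma adjusted p = 0.0122). In each of these 3 genes the lowest library of the retained-intron class was above the highest of the protein-coding class. Hdac1 had 34.4, 51.6 and 56.5 TPM against 9.06, 20.1 and 13.4 TPM, a ratio of 1.78 ± 0.24 (limma adjusted p = 0.0075), and Setd5 had 63.7, 118 and 109.8 TPM against 24.03, 38.05 and 33.7 TPM, a ratio of 1.58 ± 0.20 (limma adjusted p = 0.0067). Smaller ratios were those of Kdm5a at 1.16 ± 0.19, Suz12 at 0.96 ± 0.20 and Kdm3a at 0.88 ± 0.19, with limma adjusted p of 0.011, 0.0202 and 0.022.

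In each of these 8 genes the retained-intron model with the highest level was taken, which need not hold most of the class. Its share is given of the whole gene's level. The sequences below show where the annotated models differ from coding isoforms, and reads across these sites were not examined. Hdac1-206 made up 49.8% of the Hdac1 level and holds an intron of 263 bases between coding exons in full (chromosome 4, 129516637 to 129516899). Sirt7-205 made up 38.4% of the Sirt7 level and holds 2 whole introns, of 142 and 73 bases (chromosome 11, 120620505 to 120620646 and 120620884 to 120620956). In the others the model runs out of an exon into the intron, or starts in an intron and runs into an exon: Suz12-203 made up 52.9% of its gene's level, Kdm1a-205 31.0%, Eed-203 27.1%, Kdm5a-205 18.5% and Kdm3a-207 14.1%. A splice site was counted where its intron lies within the coding region and the model covers 15 bases on either side. Its 15 intron bases also had to lie outside every exon of a protein-coding isoform. By this count Setd5-209, 19.8% of the Setd5 level, reads through no splice site, although 75.5% of its bases are intronic. Below is the first such site from the 5′ end of each of the other 7 models, 15 bases on either side of the exon border, with exon bases in lower case and intron bases in capitals, in mm10 on the strand of the gene, from the GENCODE M21 transcripts. A capital GT right after the exon is the start of an intron (donor), and a capital AG right before the exon is its end (acceptor).
Hdac1-206, donor, chr4:129516885-129516914, − strand: gccagaagccaaaggGTGAGGAAAGGGGCT
Sirt7-205, donor, chr11:120620942-120620971, − strand: aatatgtatattgaaGTGAGCAGTACCGAG
Eed-203, donor, chr7:89972216-89972245, − strand: gtgggaagcaacagaGTGAGTGTCGGGTGG
Suz12-203, acceptor, chr11:79995602-79995631, + strand: TTTCCTGTTACCTAGaaccaacacagatat
Kdm1a-205, acceptor, chr4:136552574-136552603, − strand: GTTCTGTTTCCCCAGctccaatactattgg
Kdm5a-205, acceptor, chr6:120430045-120430074, + strand: TGTCTTGGGGGAAAGgttctagcactccaa
Kdm3a-207, acceptor, chr6:71596878-71596907, − strand: TTTTATTAAATTCAGacagaaaatggattg
The 3 donor sites start with GT and the 4 acceptor sites end with AG, the dinucleotides at the edges of most introns. Of the 51 leading retained-intron models of the 65 genes, 48 read through at least 1 splice site by this count. All 76 sites so counted had GT or AG at the intron's edge. Whole introns were counted without the conditions on the coding region and on other exons. They were held by 12 of the 51 models, 17 annotated introns in all, of which 16 lie between coding exons. Alternative introns that overlap, as in Ezh2-207 and Kat6b-206, were each counted. Intronic bases made up 11.2 to 75.5% of the 8 models named here, with a median of 36.4% over the 51.

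The 12 genes called lower, with the protein-coding class higher, were 4 deacetylases (Hdac4, Hdac6, Hdac8 and Hdac9), 4 methyltransferases or SET genes (Kmt2c, Kmt2e, Setd7 and Setdb2), the demethylases Kdm3b and Kdm5c, the sirtuin Sirt6 and the acetyltransferase Kat5. Kdm3b had 0.98, 3.77 and 2.31 TPM in retained-intron isoforms against 18.3, 30.4 and 20.8 TPM in protein-coding ones, a log2 ratio of −3.39 ± 0.30 (limma adjusted p = 0.00363). Hdac8 had 0.44, 0.7 and 0.65 TPM against 4.7, 6.3 and 5.12 TPM, a ratio of −2.98 ± 0.20 (limma adjusted p = 0.00292), and Kmt2c had 10.3, 15.7 and 5.63 TPM against 38.95, 67.1 and 57.3 TPM, a ratio of −2.44 ± 0.36 (limma adjusted p = 0.00857). Kdm3b thus lay opposite to its paralog Kdm3a, whose retained-intron isoforms were the higher class in the same test, although the difference between the 2 genes was not itself tested. Kdm5c had 8.91, 10.9 and 9.16 TPM against 31.3, 35.5 and 35.7 TPM, a ratio of −1.82 ± 0.20 (limma adjusted p = 0.005), where its paralog Kdm5a, described above, had the higher retained-intron class. Setdb2 had 28.6, 9.21 and 9.15 TPM against 49.9, 49.9 and 40.3 TPM, a ratio of −1.78 ± 0.39 (limma adjusted p = 0.0216). Its protein-coding level was alike in replicates 1 and 2, while its retained-intron level was highest in replicate 1, the library in which the whole gene was highest. The ratios of the other 7 ran from −2.39 ± 0.26 in Hdac9 to −0.91 ± 0.21 in Kat5. Among the 19 genes that did not pass, Kat2b had the lowest ratio, −3.05 ± 1.11, with 5.05, 1.43 and 0 TPM in retained-intron isoforms, and Ezh2 the highest, 0.85 ± 0.54.

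**Figure D4:**
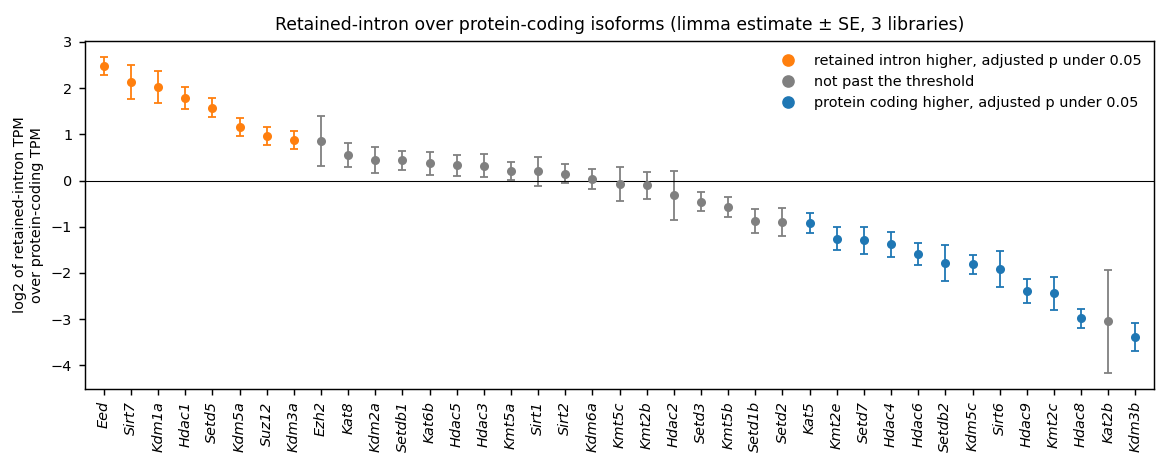
Log2 ratio of retained-intron over protein-coding TPM (each plus 0.1) in the 39 enzyme genes tested, as the limma estimate ± SE over 3 libraries, sorted from highest to lowest. Orange points are the 8 genes with the retained-intron class higher and blue points the 12 with the protein-coding class higher, from Eed at 2.49 to Kdm3b at −3.39.

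These isoform calls changed with the setting, for the enzyme genes and for all genes tested. With kallisto-layout TPM 16 of 41 enzyme genes were called higher and 12 lower, where 1810 of all 4871 genes tested were higher and 1351 lower. With CPM, which is not divided by length, 2 of 39 enzyme genes were higher and 25 lower, where 745 of all 4311 genes were higher and 2420 lower. Leaving out replicate 3 left 3 higher and 6 lower of the 39, and 426 higher and 541 lower of all genes. Leaving out replicate 2 left 6 higher and 7 lower of the 39, and 838 higher and 806 lower of all genes. The calls of Eed, Hdac1, Setd5, Kdm3b, Kdm5c, Hdac8, Hdac9 and Kmt2c held under each setting that divides by length, including kallisto-layout TPM and each library left out. With CPM the calls of Eed (0.32, limma adjusted p = 0.203), Hdac1 (0.17, adjusted p = 0.568) and Kdm1a (0.08, adjusted p = 0.854) were lost. The 2 genes still called higher were Sirt7 and Setd5, while Kdm3b, Kdm5c, Hdac8, Hdac9 and Kmt2c stayed lower. With kallisto-layout TPM the calls of Kdm1a (0.74, limma adjusted p = 0.093), Hdac6 (−0.13, adjusted p = 0.759) and Kat5 (−0.25, adjusted p = 0.292) were lost, and Setd7 turned to 0.39 (adjusted p = 0.165). Without the filter on the summed mean the limma adjusted p was 0.051 for Suz12, 0.053 for Setd7, 0.056 for Kdm3a and 0.062 for Kat5. Without replicate 3 the limma adjusted p was 0.063 for Kdm1a, 0.065 for Sirt7, 0.073 for Kdm5a, 0.085 for Suz12, 0.119 for Kdm3a, 0.102 for Setdb2, 0.066 for Sirt6, 0.055 for Hdac6, 0.118 for Setd7, 0.134 for Kat5 and 0.054 for Kmt2e. Without replicate 2 it was 0.054 for Hdac4 and Kmt2e, 0.063 for Setdb2, 0.085 for Setd7, 0.101 for Kat5, 0.074 for Suz12 and 0.082 for Kdm3a. Without replicate 1 it was 0.054 for Kmt2e, 0.056 for Kdm3a, 0.063 for Suz12 and 0.065 for Hdac4.

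Isoforms marked for nonsense-mediated decay held little of the RNA. Of the 65 genes, 30 had both this class and a protein-coding one, and 18 were tested in the same way among 1677 genes. By limma at an adjusted p under 0.05 the class was lower than the protein-coding one in 15, where 72.4% of all genes tested were so called, and higher in 0, where 3.34% of all were. At an unadjusted p under 0.05, 16 of the 18 passed, and with kallisto-layout TPM 1 gene, Kmt2e, was called higher. Kmt2d, Suz12, Hdac8 and Kmt5c had isoforms of this class listed at 0 TPM in every library, for which no fold is given. These 4 are among the 15 called lower, and their ratio is set by the added 0.1. With kallisto-layout TPM the call of Suz12 was lost, at a ratio of −0.38 (limma adjusted p = 0.382). Setd2 had 5.17, 5.02 and 7.82 TPM in this class against 24.2, 35.2 and 37.8 TPM in protein-coding isoforms, a log2 ratio of −2.42 ± 0.35 (limma adjusted p = 0.00436), and Kmt2a had 8.92, 6.19 and 6.4 TPM against 29.5, 43.6 and 28.4 TPM, a ratio of −2.21 ± 0.39 (limma adjusted p = 0.00754). The 3 genes that did not pass were Sirt1, Kdm5a and Setd3. Sirt1 had 3.74, 4.08 and 7.93 TPM against 2.14, 3.46 and 4.74 TPM, a ratio of 0.58 ± 0.35, and Kdm5a had 5.72, 14.1 and 9.21 TPM against 4.25, 11.4 and 8.36 TPM, a ratio of 0.29 ± 0.34. In both, the decay class lay above the protein-coding one in every library, but the difference did not pass the threshold. Setd3 had a ratio of −1.72 ± 0.61. Without replicate 1, 2 or 3 the limma adjusted p of Kmt2e was 0.080, 0.092 and 0.156, and that of Setd3 without replicate 1 was 0.014.

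Other histone-modifying enzymes and subunits of their complexes, 26 genes outside the naming rule, had a median of 11.2 TPM, with 25 at 1 TPM and 12 at 10 TPM in every library. Among them were the acetyltransferases Ep300 and Crebbp, the coactivators of many inducible genes, with 22.02, 43.4 and 27.4 TPM, a mean of 30.9 ± 11.1 TPM and 26.8, 33.6 and 26.4 TPM, a mean of 28.97 ± 4.05 TPM. The H3K36 methyltransferase gene Nsd3 had 117, 124 and 108 TPM, a mean of 116 ± 8.25 TPM, and the H3K9 methyltransferase gene Ehmt2 had 68.3, 131 and 67.9 TPM, a mean of 89.1 ± 36.5 TPM, which put both above all of the 65 genes but Setd5 on average. For Ehmt2 this rested on replicate 2, and in replicates 1 and 3 it was below Kdm6b (76.02 and 96.5 TPM). In kallisto-layout sums Ehmt2 averaged 73.4 TPM, below Kdm6b at 76.8 TPM. Of the 5 listed subunits of H3K4 complexes, Wdr5 was highest on average and Dpy30 lowest. Wdr5 had 6.92, 10.1 and 8.93 TPM, a mean of 8.65 ± 1.61 TPM and Dpy30 0.71, 2.1 and 1.01 TPM, a mean of 1.27 ± 0.731 TPM. In replicate 2, Ash2l (12.4 TPM) and Rbbp5 (11.02 TPM) were above Wdr5. In the retained-intron test 18 of these 26 genes were tested, with 1 called higher (24.3% of all genes tested), Ash2l at 1.44 ± 0.36 (adjusted p = 0.0317), and 9 called lower (25.6% of all), among them Crebbp at −2.24 ± 0.22 (adjusted p = 0.00432) and Dot1l at −2.05 ± 0.27 (adjusted p = 0.00694), both limma estimates. In the decay test 8 were tested by limma, with 0 called higher (3.34% of all) and 7 lower (72.4% of all).

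The levels were recomputed from the second quantification that the authors deposited, transcript tables in the layout of kallisto. The median ratio of this level to the one given above was 1.28, with 46 of 62 genes of at least 1 TPM higher in it, 6 of them over 2 times higher. Setd5 ranked first in both, while Sirt2 ranked 2 and Kdm6b 5 by kallisto. The largest change was in Sirt5, whose kallisto values, given above, averaged 19.6 TPM against 1.83 TPM in the gene tables. By kallisto 16.6 TPM of this mean lay in 1 protein-coding isoform, Sirt5-209, for which the other tables gave 0.36 TPM. Kdm4b had 20.7, 20.9 and 7.41 TPM by kallisto, of which a processed transcript of 130 bases, Kdm4b-206, made up 7.89 TPM on average, and 18.8, 76.8 and 55.8 TPM as posterior means, against 6.79, 11.1 and 5.51 TPM above. Hdac11 had 1.79, 5.88 and 4.47 TPM as posterior means, against 0.03, 0.56 and 0.24 TPM above. Kdm2b, Ezh1, Sirt1 and Kat7 were also over 2 times higher by kallisto. They averaged 11.5, 22.4, 28.1 and 29.1 TPM in it, against 4.82, 10.5, 13.2 and 14.1 TPM above. The level of all genes named here as differing is therefore uncertain.

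**Figure D5:**
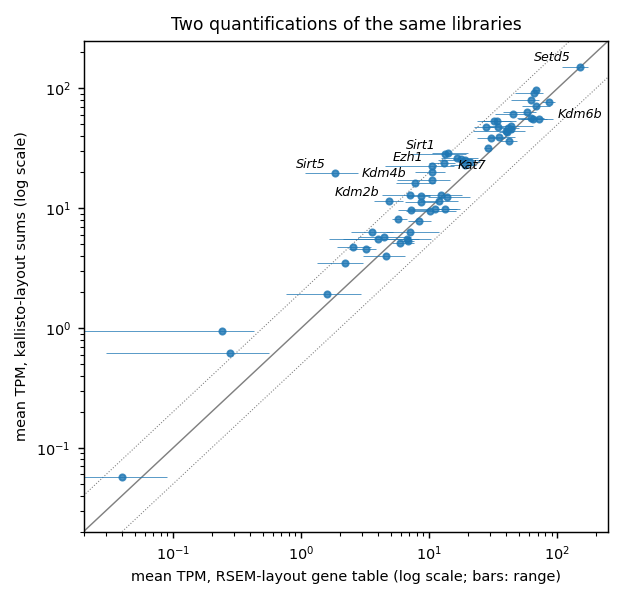
Mean TPM of each enzyme gene from the gene tables (x axis, with the range over 3 libraries) against the mean from kallisto-layout transcript sums (y axis), both on log axes. The solid line marks equal values and the dotted lines a ratio of 2 in either direction. Sirt5 lies farthest above the line among the genes of at least 1 TPM, at 19.6 TPM against 1.83 TPM.

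Reads of overlapping genes could also be shared, since no source used here gives the strand setting of the counting. Another annotated gene overlapped 38 of the 65 genes, on the opposite strand in 32, and in 25 an overlapping gene had at least 1 TPM. Sirt7 shares sequence with Mafg on the same strand, which stood at 53.0 TPM, and Sirt2 overlaps Nfkbib on the other strand, at 52.3 TPM. Kdm6b is overlapped by its antisense gene Kdm6bos, at 16.2 TPM. Some low genes lay under a higher neighbour: Kdm1b overlaps Dek at 34.7 TPM, Setdb1 overlaps Cers2 at 41.1 TPM, and Sirt3 overlaps Psmd13 at 24.2 TPM and Ric8a at 19.96 TPM. Setd5, Hdac1 and Kdm3a had no annotated overlapping gene. Paralogs such as Hdac1 and Hdac2 could also share reads, and how these were divided was not stated.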

How the data were processed

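Total RNA of chromatin was sequenced after removal of ribosomal RNA, at fragment sizes that the labels give as 250 to 400 bases. Expected counts per gene and transcript and TPM values (maximum likelihood and posterior mean) were deposited by the authors as RSEM-style tables. Per the file notes these come from reads aligned to the GENCODE M21 transcriptome of mm10. The authors also deposited transcript tables as kallisto writes them, with estimated counts and TPM. No source used here names the aligner, the strand setting or the versions. Rows that name no gene held 1.94, 0.269 and 0.386% of the counts and were left out.

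Genes were matched by identifier, with 0 unmatched. The enzyme genes and all lists, pairs and tests were chosen with earlier results of these data known. Levels are TPM, and undetected means at most 3 expected counts in each library. Isoform classes were compared with limma 3.58.1 in R 4.3.3, after summing TPM by class, adding 0.1 and requiring a summed mean of at least 5 TPM, with Benjamini-Hochberg adjustment over all genes tested and a threshold of 0.05. The script was tested on simulated data. Pairs were compared by exact sign flips over 3 libraries. Splice sites came from the M21 annotation and transcripts. Tables were handled in Python 3.11.15 with numpy 2.4.6, pandas 2.3.3 and scipy 1.17.1, and figures drawn with matplotlib 3.10.9. Named with values in each library were the 10 highest genes, the 3 highest and the lowest of each role, undetected genes, pair members, called genes (the gene total, and the classes for the largest ratios) and the 5 most variable genes. Alternatives were kallisto-layout sums, posterior means, other pseudocounts and filters, counts not divided by length, each library left out and, chosen after seeing the data, pairs over protein-coding isoforms alone.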

Additional observations from a re-analysis of the deposited data

How the results depend on the processing

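With kallisto-layout sums the median level of the 65 genes was 22.4 TPM, and group medians moved by more than the SD of the library medians to 46.7 TPM for H3K4 methyltransferases, 38.7 TPM for the other methyltransferases and SET genes, 28.1 TPM for sirtuins, 23.8 TPM for Polycomb repressive complex 2 and 18.6 TPM for acetyltransferases. The median of the demethylases was 30.1 TPM with posterior means and 32.2 TPM over those with a mean of at least 1 TPM. No median moved by more than that SD when a library was left out, but this could hardly fail. Leaving out 1 of 3 libraries moves a mean by less than the SD of the 3 values by construction. The median of the 65 genes was 14.4, 11.1 and 13.8 TPM without replicate 1, 2 and 3. Over the settings run, 61 to 63 genes had at least 1 TPM and 32 to 38 at least 10 TPM in every library used. Single levels moved by more than their SD in 32 of 65 genes with kallisto-layout sums and in 8 with posterior means.

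Retained-intron isoforms were called higher in 16 genes with kallisto-layout TPM and in 2 with counts not divided by length, and lower in 25 with these undivided counts, which give long coding isoforms more weight by construction. Leaving out 1 library gave 3 to 6 genes higher and 6 to 11 lower, and 14 to 15 lower for nonsense-mediated decay, with 0 higher in each. With kallisto-layout TPM 1 gene was higher for nonsense-mediated decay, Kmt2e at 1.17 (limma adjusted p = 0.0131). Among ratios called in either setting, counts not divided by length turned the retained-intron ratio of Hdac5 (−1.79), Kdm3a (−1.45), Kdm5a (−1.86), Kmt5a (−1.28), Sirt1 (−2.44), Sirt2 (−0.61) and Suz12 (−2.31) and the decay ratio of Kdm5a (−1.29). Among such ratios kallisto-layout TPM also turned Kmt2b (0.90) and Setd7 (0.39), and the cause was not tested. Among pairs, kallisto-layout sums turned Kat2a over Kat2b (−0.66), Kdm3a over Kdm3b (−0.33), Kmt2a over Kmt2b (−0.00371) and Kmt2c over Kmt2d (−0.0305), posterior means turned Kat2a over Kat2b (−0.0832), sums over protein-coding isoforms, an alternative chosen after seeing the data, turned Kat2a over Kat2b (−0.511), Kdm3a over Kdm3b (−1.17) and Kmt2c over Kmt2d (−0.208), and leaving out 1 library gave −0.480 to 0.0723 for Kdm5a over Kdm5c, the positive value without replicate 1. No paired analysis was possible because all libraries belong to 1 group.

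Depth limits the low genes: Kdm4d, Kdm8 and Hdac11 had at most 17.8 counts in any library. With 3 libraries the sign-flip test cannot go below 0.25.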
